A study of Mus musculus with 10 samples.

Results

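Transfer RNA (tRNA) genes, each with 500 bp of surrounding sequence on either side, were examined for peaks of the HA-tagged histone chaperone isoforms SETα and SETβ in mouse embryonic stem cells. All genes of biotype tRNA in the RefSeq annotation of GRCm38 on the nuclear autosomes other than 8 and 11 were taken, without use of any measured value. This gave 332 of the 41574 annotated genes on the same chromosomes. They lay on 16 chromosomes, were 70 to 106 bp long (median 72) and carried 46 anticodons for 20 amino acids. Of these, 247 formed 49 clusters in which the next tRNA gene lay within 10 kb, 18 clusters being pairs and the largest holding 22 genes, and 85 were single genes. On chromosome 13 there were 105, and on chromosome 6 there were 53.

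The cells were of the KH2 line, in which one transgene is expressed from a doxycycline-inducible site, and each group was a line of its own, so that line and group cannot be told apart. SETα addback (KH2 SET-KO pBS31-HA-SETa) and SETβ addback (KH2 SET-KO pBS31-HA-SETb) expressed the tagged isoform in cells without endogenous SET. SETα overexpression (KH2 pBS31-HA-SETa) and SETβ overexpression (KH2 pBS31-HA-SETb) expressed it beside endogenous SET. All 4 groups received doxycycline at 1 µg/ml for 24 h, were depleted of feeder fibroblasts, were crosslinked with 2 mM DSG for 45 min and then with 1% formaldehyde for 10 min, and were precipitated with one HA antibody. Each had 2 replicates. The labels do not say whether replicates were separate cultures, so that p-values measure only the spread between these libraries, which may be technical. Uninduced SET KO samples were not analysed here, so no value has a background from cells without the tagged protein. Peak lists hold no expression values, so neither the cell type nor the loss of endogenous SET could be checked.

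Transfer RNAs carry amino acids to the ribosome, and growing cells transcribe their genes heavily. Transcription is by RNA polymerase III from a promoter inside the gene: TFIIIC binds the A and B boxes within the transcribed sequence and recruits TFIIIB, which contains TBP, to the DNA just upstream. Many mammalian tRNA genes are grouped, and many occur as near-identical copies, so that short reads from them can be hard to assign to one gene.

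The sequences below show where the internal promoter lies in 4 genes that come back in the results. They are given 5′ to 3′ on the strand read from the motif, with the B box in capitals, found as the 11-letter motif GGTTCNANNCC on either strand. The RefSeq table of GRCm38.p6 windows around gene starts overlapped 9 of the tRNA genes and held 4 of them whole, all printed here. Of all 32851 windows in that table, 261 (0.794%) held the motif.
n-TVcac9: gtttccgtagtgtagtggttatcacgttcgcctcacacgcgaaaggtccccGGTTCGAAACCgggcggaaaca
n-TRtcg5: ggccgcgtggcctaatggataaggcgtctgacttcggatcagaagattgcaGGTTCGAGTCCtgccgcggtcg
n-TTagt9: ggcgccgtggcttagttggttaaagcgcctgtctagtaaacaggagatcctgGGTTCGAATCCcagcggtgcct
n-TAagc16: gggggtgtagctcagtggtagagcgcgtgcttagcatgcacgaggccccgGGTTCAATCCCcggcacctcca
n-TVcac9, a valine tRNA gene at chr13:23446142-23446214, has its anticodon letters cac from position 34 and was the tRNA gene outside a coding gene's vicinity with the strongest addback peaks. n-TRtcg5 (arginine, chr7:79466419-79466491) lies inside the annotated span of Polg, before one of its starts. n-TTagt9 (threonine, chr7:35234770-35234843) is a single gene, and n-TAagc16 (alanine, chr13:21222586-21222657) belongs to a pair. The motif began at position 51, 52 or 53 in these 4 genes, and its letters differed from gene to gene at the positions left free.

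In SETα addback, peaks lay at a large minority of tRNA genes. Of the 332 regions, 117 held a peak in replicate 1, or 35.2% (Wilson 95% interval 30.3 to 40.5), and 144 in replicate 2, or 43.4% (38.1 to 48.8). The same regions moved by 20 kb held peaks at 7.23% and 6.78% (mean of both directions). Over all 41574 gene regions, whole genes plus 500 bp, the share was 27.3% in replicate 1 and 23.1% in replicate 2, so that the tRNA regions exceeded the whole set of genes in both replicates. Protein-coding genes reached 47.5% and 41.7%. Intervals here cover counting error only, and the sequencing depth behind the lists is not known.

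In SETβ addback, 26 regions held a peak in replicate 1, or 7.83% (5.40 to 11.2), where all genes gave 5.64% and the moved regions 1.20%. In replicate 2 it was 62 regions, or 18.7% (14.8 to 23.2), against 15.4% of all genes and 1.81% of the moved regions. The SETβ shares stood close to those of all genes and above those of the moved regions, and both replicates lay below both SETα replicates.

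In the overexpression libraries few tRNA regions held a peak. SETα overexpression had 15 (4.52%) and 16 (4.82%), against 1.8% and 2.99% of all genes and 1.05% and 0.602% of the moved regions. SETβ overexpression had 17 (5.12%) and 29 (8.73%), against 0.945% and 2.68% of all genes and 1.36% and 2.11% of the moved regions. All 8 libraries had more peaks at the listed positions than at the moved ones, in the overexpression libraries through a single array of 15 genes described below, apart from SETβ overexpression replicate 2.

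**Figure D1:**
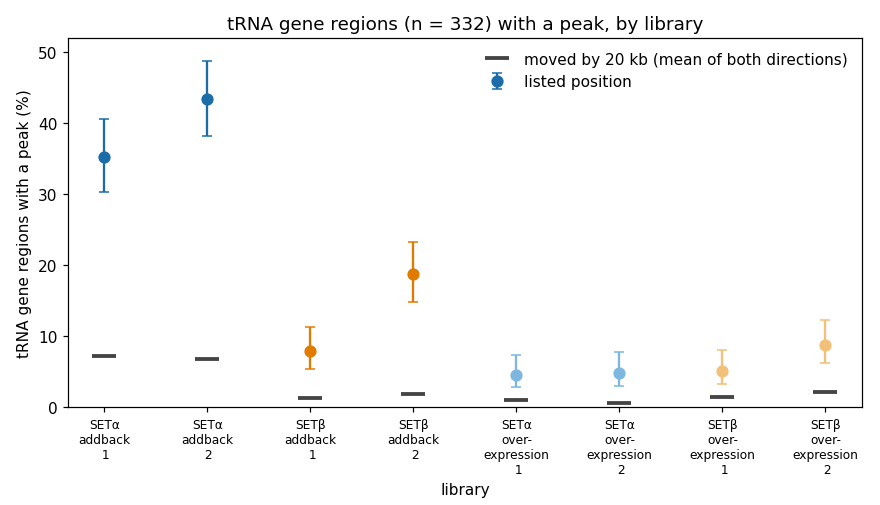
Percentage of the 332 tRNA gene regions (gene plus 500 bp on each side) that overlap a peak, by library. Coloured points are the listed positions with Wilson 95% intervals and grey bars the same regions moved by 20 kb. The SETα addback points, at 35.2% and 43.4%, stand above the SETβ addback points, at 7.83% and 18.7%, and the 4 overexpression points lie between 4.52% and 8.73%.

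Other short noncoding genes, whose regions are of like width, did not show such shares. In SETα addback the snoRNA genes (1154) held peaks at 5.37% and 2.77%, the snRNA genes (828) at 4.23% in both replicates and the miRNA genes (992) at 8.17% and 8.67%. In SETβ addback the highest of these shares was 2.92%, for miRNA genes in replicate 2. No test was made across genes, since genes of one library are not replicates.

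In addback the mean share was 39.3% ± 5.75 for SETα and 13.3% ± 7.67 for SETβ, and in overexpression it was 4.67% ± 0.21 and 6.93% ± 2.56 (SD, n = 2 each). The mean over the isoforms was 20.5 percentage points higher in SET KO than in SET wild type, against a spread between replicates of 4.96 points (exact two-sided permutation test over libraries, p = 0.111). The groups overlapped, since SETβ addback replicate 1, at 7.83%, lay below SETβ overexpression replicate 2, at 8.73%. The smallest p this design allows is 0.0556, so that a p under 0.05 could not be reached. SETα exceeded SETβ by 11.9 points averaged over the backgrounds (exact two-sided permutation test, p = 0.333). Differences of this kind were not particular to tRNA genes: all gene regions differed by 15.8 points between backgrounds and 7.63 between isoforms, and protein-coding ones by 28.8 and 12.8. After subtraction of the moved share the differences were 17.5 points between backgrounds (exact permutation test, p = 0.111) and 9.60 points between isoforms (exact permutation test, p = 0.278).

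The isoforms ranked in opposite order in the backgrounds. SETα lay 26.1 points above SETβ in SET KO and 2.26 points below it (-2.26) in SET wild type, and in each case both libraries of one isoform lay above both of the other. The difference between these differences was 28.3 points. No p is given, since the comparison was chosen after this separation had been seen, which fixes it. In SET wild type the separation was narrow. After subtraction of the moved share the isoforms overlapped there, with 3.46 and 4.22 points for SETα overexpression and 3.77 and 6.63 for SETβ overexpression. Over all gene regions SETα addback (27.3% and 23.1%) also lay above SETβ addback (5.64% and 15.4%). That order was thus not particular to tRNA genes. In overexpression the all-gene shares overlapped, at 1.8% and 2.99% for SETα and 0.945% and 2.68% for SETβ.

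The lists differ widely in length, and the differences moved with it. SETα addback lists held 22176 and 15701 peaks, SETβ addback 2518 and 9771, SETα overexpression 4807 and 7675, and SETβ overexpression 1343 and 2869. With the strongest 1343 peaks of each library, the share of tRNA regions was 6.93% and 9.94% for SETα addback, 4.52% and 4.82% for SETβ addback, 4.22% and 2.71% when SETα was overexpressed and 5.12% and 6.33% when SETβ was. The background difference was then 1.96 points (exact permutation test, p = 0.333) and the isoform difference 0.75 points (exact permutation test, p = 0.722). The 28.3 points became 6.02. With SETα addback, and in replicate 2 of SETβ addback, most tRNA regions with a peak thus rested on peaks below the strongest 1343.

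The peaks themselves were of middling rank in the addback lists. The regions of SETα addback rested on 92 and 118 distinct peaks and those of SETβ addback on 19 and 53. Placed within their own list from 0 (weakest) to 100 (strongest), they had median percentiles of 62.4 and 64.6 with SETα and 33.2 and 66.3 with SETβ. The authors' −log10 q reached 5 in 9 and 13 of the SETα peaks and in 2 of each SETβ library. The authors' fold enrichment at these peaks had medians of 3.24 and 3.68 with SETα and 2.73 and 2.99 with SETβ. Over the overexpression lists, 14 to 19 distinct peaks had median percentiles of 79.3 to 89.4, and were wide: their median widths were 359 to 595 bp, against 267 to 291 bp for all peaks of those lists.

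Peak summits gathered close to the tRNA genes. In SETα addback there were 28.5 and 35.5 summits per 100 kb within 500 bp of a tRNA gene's centre, 8.39 and 9.65 between 500 and 1000 bp, and 4.11 and 2.28 between 1000 and 5000 bp. SETβ addback had 5.97 and 14.6, then 0.84 and 5.88, then 0.53 and 1.60. All 4 overexpression libraries also had their highest density, 3.65 to 5.97, within 500 bp. Apart from SETβ overexpression replicate 2, this rested mainly on an array of 15 genes on chromosome 1 described below. Without it the summits within 500 bp went from 13 and 11 to 0 and 0 with SETα overexpression and from 12 and 18 to 1 and 9 with SETβ overexpression. The addback libraries kept 80 of 86 and 101 of 107 with SETα, and 13 of 18 and 40 of 44 with SETβ. With SETα addback a peak overlapped the tRNA gene itself in 58 and 82 cases, and with SETβ addback in 9 and 28.

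**Figure D2:**
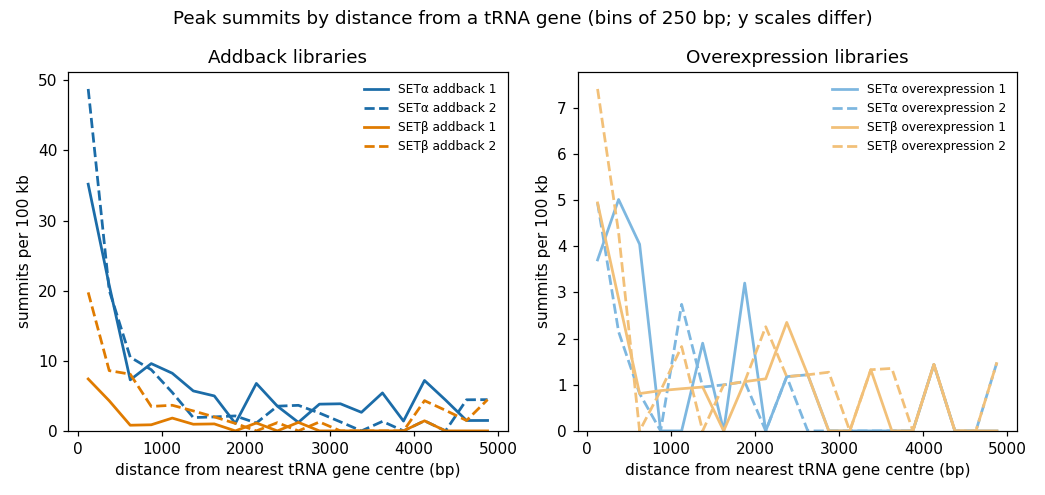
Density of peak summits (summits per 100 kb, in bins of 250 bp) against distance from the centre of the nearest tRNA gene (bp), addback libraries on the left and overexpression libraries on the right, with different y scales. Solid lines are replicate 1 and dashed lines replicate 2. In the first 250 bp the density is 35.2 and 48.8 with SETα addback, 7.41 and 19.8 with SETβ addback and 3.70 to 7.41 in the overexpression libraries. Apart from SETβ overexpression replicate 2, the overexpression summits within 500 bp lay mainly at the chromosome 1 array.

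The summits lay nearer to the tRNA gene than to an end of a coding gene. For the strongest peak of each SETα addback region, the median distance to the tRNA gene's centre was 292 bp in replicate 1 and 224.5 bp in replicate 2, and to the nearest coding gene end 8578 and 8212 bp. The tRNA gene was the nearer in 111 of 117 and 134 of 144 regions. With SETβ addback it was the nearer in 21 of 26 and 55 of 62. When the further starts that RefSeq lists inside coding genes were also counted, these became 107 and 131 with SETα and 20 and 53 with SETβ. The choice of regions around tRNA genes itself limits the first distance.

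Closeness to a coding gene nevertheless went with more peaks. Of the 332 tRNA genes, 51 lay inside a protein-coding gene (25 genes) or within 1 kb of one. In SETα addback 26 (51.0%) and 29 (56.9%) of these 51 held a peak, against 91 (32.4%) and 115 (40.9%) of the 281 others. In SETβ addback it was 11 (21.6%) and 17 (33.3%) of the 51 against 15 and 45 of the 281. The near genes exceeded the far ones in all 4 addback libraries, by 17.0 points ± 1.21 (SD, n = 4). The difference was 7.27 points with peaks of −log10 q of at least 5 and 10.2 with those of at least 1.3, where SETβ addback replicate 2 had -0.52. Without chromosome 6 it was 11.5 and 7.14 points in SETα addback and 15.9 and 15.1 in SETβ addback. The far genes still exceeded their moved regions, which held peaks at 6.94% and 7.12% in SETα addback and 1.07% and 1.96% in SETβ addback.

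The pair n-TFgaa3 and n-TNgtt7 held the strongest tRNA-associated peak of every addback library. These phenylalanine and asparagine tRNA genes lie on chromosome 10, at 80248964 to 80249036 and 80249159 to 80249232, the second overlapping the window before a start of Ndufs7, which encodes a subunit of mitochondrial respiratory complex I. The window is printed below from chr10:80249199-80249448, ending at the last base before that start, with the last bases of n-TNgtt7 in capitals.
n-TNgtt7 and Ndufs7: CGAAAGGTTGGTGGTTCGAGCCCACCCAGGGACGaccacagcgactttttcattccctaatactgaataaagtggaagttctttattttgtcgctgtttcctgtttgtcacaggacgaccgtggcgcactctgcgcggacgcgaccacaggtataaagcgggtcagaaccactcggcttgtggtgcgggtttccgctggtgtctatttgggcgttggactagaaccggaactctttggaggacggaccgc
A single peak overlapped both tRNA genes in each addback library, with a −log10 p of 66.4 and 83.4 with SETα and 104 and 86.1 with SETβ. Its fold enrichment was 17.2 and 23.7 with SETα and 15.5 and 14.9 with SETβ. It ranked 26 and 12 in the SETα lists and 12 and 10 in the SETβ lists. No overexpression library had a peak there. The summits lay 169 to 228 bp from the centre of n-TNgtt7 and 259 to 318 bp from the nearer end of the annotated span of Ndufs7, which takes in n-TNgtt7. All 4 fell within the printed window, 26 to 85 bp from the Ndufs7 start at its end, and so lay nearer to that start than to the tRNA gene. The tRNA genes and Ndufs7 cannot be told apart as the source of this peak.

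n-TVcac9 held the next strongest. Its peaks had a −log10 p of 27.8 and 28.6 in SETα addback and 28.8 and 24.4 in SETβ addback, and folds of 9.46, 11.1, 8.48 and 8.19. Within their own lists, from 0 (weakest) to 100 (strongest), these peaks stood at the percentiles 99.0 and 98.5 in SETα addback and 89.9 and 97.7 in SETβ addback. No overexpression library had a peak. The nearest coding gene end, of the milk-fat protein gene Btn1a1, was about 11 kb away, at 11041 to 11075 bp. The noncoding gene Gm46404 starts next to the tRNA gene, and the window before that start is printed from chr13:23445972-23446221, on the strand of Gm46404, with the tRNA gene in capitals.
n-TVcac9 and Gm46404: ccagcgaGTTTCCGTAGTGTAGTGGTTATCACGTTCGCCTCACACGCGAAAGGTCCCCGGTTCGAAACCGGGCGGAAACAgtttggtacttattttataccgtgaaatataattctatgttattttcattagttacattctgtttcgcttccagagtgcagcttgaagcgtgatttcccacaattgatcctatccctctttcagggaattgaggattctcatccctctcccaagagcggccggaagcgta
The summits, from 23445909 to 23445943, lay just past the right-hand end of this window, 235 to 269 bp from the tRNA gene's centre. They were thus nearer to that start of Gm46404 than to the tRNA gene. The tRNA gene and Gm46404 cannot be told apart as the source of this peak. In SETα addback replicate 2 the peak reached the region of n-TRacg5, an arginine tRNA gene of the same cluster.

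Polg encodes the catalytic subunit of the mitochondrial DNA polymerase. The window with n-TRtcg5 is printed from chr7:79466274-79466523 on the strand of Polg, so that the tRNA gene in capitals reads in reverse.
n-TRtcg5 and Polg: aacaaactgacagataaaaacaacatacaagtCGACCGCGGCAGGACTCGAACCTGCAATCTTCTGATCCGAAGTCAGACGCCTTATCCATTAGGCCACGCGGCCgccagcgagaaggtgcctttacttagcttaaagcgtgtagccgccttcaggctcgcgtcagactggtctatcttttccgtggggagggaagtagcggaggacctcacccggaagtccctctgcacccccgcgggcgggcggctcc
There the −log10 p was 4.40 and 12.9 with SETα addback, and 3.39 in SETβ addback replicate 2, and replicate 1 of SETβ addback had no peak. The 3 summits lay 220 to 620 bp from the tRNA gene's centre and 38 to 438 bp from the nearest Polg start. The other 2 whole genes printed above held peaks in fewer libraries. n-TTagt9 had one in SETα addback replicate 2 (−log10 p 6.50), and n-TAagc16 had one in replicate 2 of each addback group (4.20 with SETα and 5.18 with SETβ).

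In all 4 addback libraries together, 13 tRNA regions held a peak, resting on 9 distinct sets of peaks. This was 3.92% of the tRNA regions, near the 3.64% of all gene regions. Beside the sites of n-TNgtt7 and n-TVcac9 and the chromosome 1 array described below, they included n-TNgtt11 on chromosome 3, with a −log10 p of 10.9, 6.65, 5.38 and 3.88 in the order SETα 1, SETα 2, SETβ 1 and SETβ 2. n-TIaat16, a single isoleucine tRNA gene beside Plekhg2, had 9.22, 5.70, 5.69 and 2.40. n-TAagc7 on chromosome 13 had 3.63, 5.45, 2.65 and 6.70. SETα addback replicate 1 was the highest at the first 2 of these genes and SETβ addback replicate 2 at the third.

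Replicates overlapped in part. In SETα addback 83 genes (25.0%) held a peak in both replicates, against 16.9% of all gene regions, and 178 in either. These 83 were 70.9% of the genes of replicate 1 and 57.6% of those of replicate 2, where over all gene regions the shares were 62.0% and 73.3%. In SETβ addback 17 (5.12%) held one in both, against 4.13% of all gene regions, and 71 in either. The 17 were 65.4% of replicate 1 and 27.4% of replicate 2, beside 73.3% and 26.8% over all gene regions. Of the 71 SETβ genes, 61 were among the 178 SETα genes, or 85.9% of the SETβ genes and 34.3% of the SETα genes. Over all gene regions the same shares were 85.4% and 43.2%, so that the first was near the background. The 178 genes were 53.6% of the tRNA regions, where either SETα library had a peak at 33.5% of all gene regions and either SETβ library at 17%. At least 1 addback library had a peak at 188 tRNA genes, or 56.6% against 36% of all gene regions, and 142 genes had none in any of the 8 libraries.

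Fewer regions passed the authors' comparison of replicates by irreproducible discovery rate (IDR), which keeps peaks that both replicates rank alike. SETα addback had 13 tRNA regions with such a peak, or 3.92%, against 1.6% of all genes. SETβ addback had 3, or 0.904%, against 1.46%. SETα overexpression had 2, or 0.602%, against 0.106%, and SETβ overexpression 3, or 0.904%, against 0.0481%. The moved regions held 3, 2, 1 and 4 in one direction and 0 in the other. These counts rested on 4 distinct peaks for SETα addback, 2 for SETβ addback and 1 for each overexpression group. The peak at n-TFgaa3 and n-TNgtt7 ranked 20 in the SETα addback list of 530 and 10 in the SETβ addback list of 485, n-TVcac9 was in both, and the other regions belonged to the chromosome 1 array, apart from n-TRacg5, which shares the peak of n-TVcac9.

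Among tRNA genes, those of an array on chromosome 1 were the only ones with a peak in all 4 overexpression libraries. It spans 17.8 kb, from 171064164 to 171081946, and holds 15 genes in 3 units, each in the order glutamate, glycine, aspartate, leucine and glycine. The units follow each other at 7628 and 7614 bp, and the first reaches into Fcgr3, an immunoglobulin receptor gene of immune cells. All 15 genes held a peak in each of the 4 overexpression libraries. In addback, 15 and 14 did with SETα and 9 and 9 with SETβ. How reads were placed among such repeated units is not given in the sources used here, so single units of the array are uncertain.

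At n-TGtcc1, a glycine gene of the first unit, the −log10 p was 15.1 and 12.7 with SETα addback, 7.77 and 4.89 with SETβ addback, 7.80 and 8.46 with SETα overexpression and 7.38 and 10.2 with SETβ overexpression. Its overexpression peaks stood between percentiles 94.7 and 98.0 of their lists. Its neighbour n-TEctc5 shared the SETα overexpression peaks and had 6.45 and 10.2 with SETβ overexpression. In the third unit, n-TEctc7 had a −log10 p of 6.61 and 9.36 with SETα overexpression and 12.6 and 5.87 with SETβ overexpression. n-TDgtc6 had 9.13 and 5.87 with SETα overexpression and 8.36 and 12.2 with SETβ overexpression. In the second unit, n-TGgcc13 had 7.09 and 6.33 with SETα overexpression and 7.68 and 6.998 with SETβ overexpression. The isoforms overlapped at each of these genes in SET wild type.

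Outside the array, 317 tRNA genes remained. SETα overexpression had peaks at 0 and 1 of them and SETβ overexpression at 2 and 14. The moved regions of these genes held peaks at 0.789% and 0.631% with SETα overexpression and 0.946% and 1.58% with SETβ overexpression. At the listed positions SETβ overexpression replicate 2 had 4.42%, and the other 3 libraries had at most 0.631%, below their moved regions. Addback libraries kept 102 and 130 genes with SETα and 17 and 53 with SETβ. The array was set aside after its genes were seen to hold most overexpression peaks, so the differences without it are given with no test. That between SET KO and SET wild type was 22.5 points, and with the strongest 1343 peaks 3.39 points. In the latter the isoform difference was 0.079 points and the opposite ranking of the isoforms came to 2.68 points.

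Of the 16 genes outside the array with an overexpression peak, 14 also had an addback peak. Of the 2139 gene regions of any kind with an overexpression peak, 77.0% had one too, and 56.6% of all tRNA genes did. Of the 16, none had peaks in all 4 overexpression libraries. Of the 14 in SETβ overexpression replicate 2, 8 lay on chromosome 13, 4 of them in the cluster from n-TYgta3 to n-TLcag10 and 4 in that from n-TGgcc6 to n-TMcat9.

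**Figure D3:**
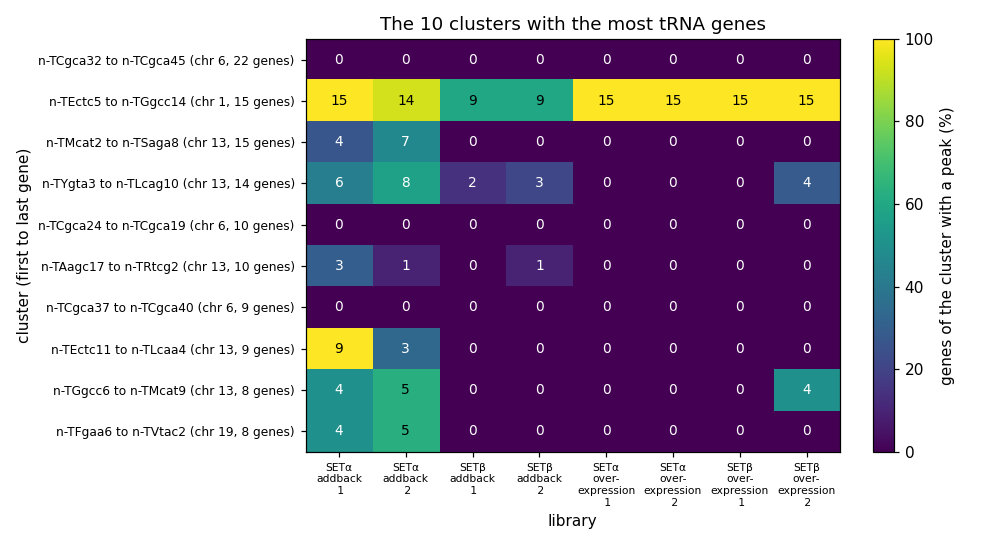
The 10 clusters with the most tRNA genes, in rows named by first and last gene, against the 8 libraries. Numbers are genes of the cluster with a peak and colours the percentage. The array on chromosome 1 is filled in all overexpression libraries, with 15 of 15 genes, the 3 cysteine clusters on chromosome 6 are at 0 in all libraries, and the clusters on chromosomes 13 and 19 hold peaks mainly with SETα addback.

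Of the 49 clusters, 41 held a peak in at least 1 addback library, and 14 and 11 did when moved by 20 kb up or down. The largest, with 22 genes, and one of 10 genes are cysteine clusters of chromosome 6 without a peak in any library. The array on chromosome 1 and a cluster on chromosome 13 follow in size with 15 genes each. The one on chromosome 13, from 21907111 to 21940995, had peaks at 4 and 7 genes with SETα addback and none in the other 6 libraries. The cluster of 14 genes from 23425646 to 23453514, which includes n-TVcac9, had 6 and 8 with SETα addback, 2 and 3 with SETβ addback and 4 in SETβ overexpression replicate 2. A cluster of 9 genes from 21160785 to 21172942 was covered in full, 9 of 9, in SETα addback replicate 1, but at 3 genes in replicate 2 and none with SETβ. These lie among the histone genes of that chromosome, where the moved regions also held more peaks: of 104 tRNA genes there, 42.3% and 41.3% held a SETα addback peak and 11.1% and 14.9% of their moved regions did.

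Clustered genes exceeded single genes in 3 of 4 addback libraries. With SETα addback 100 (40.5%) and 114 (46.2%) of the 247 clustered genes held a peak, against 17 and 30 (35.3%) of the 85 single genes. With SETβ addback it was 22 (8.91%) and 45 (18.2%) against 4 (4.71%) and 17 of the 85. The mean difference was 8.44 points and varied widely between libraries (SD 9.55, n = 4). It was not tested. Neighbouring genes of a cluster can share one peak: with overlapping regions merged into one it was 4.55 points. Without the chromosome 1 array, a setting chosen after its values were seen, it was 5.22 points. With peaks of −log10 q of at least 5 it was 3.59 points. Without SETα addback replicate 1 it was 4.43 points, and without chromosome 6, where the cysteine genes lie, 14.2 points (SD 13.2, n = 4), with all 4 libraries above 0. The single genes exceeded their moved regions, which had 4.12% in both SETα addback replicates and at most 0.588% with SETβ addback. With overexpression 0, 0, 0 and 2 single genes held a peak. All gene regions had 1.8% and 2.99% with SETα overexpression and 0.945% and 2.68% with SETβ overexpression, so that these counts were near the background. Of the 85 single genes, 48 had no peak in any library, among them n-TGgcc3 and n-TKctt7 on chromosome 1.

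Cysteine tRNA genes stood apart. There are 52, of which 49 lie within 384.6 kb of chromosome 6, from 47978997 to 48363603, all but 2 of them in clusters of up to 22 genes. Of these 52, 1 held an addback peak, n-TCgca52 on chromosome 17, in SETα addback replicate 2, and none held an overexpression peak. The whole segment had 2 and 3 peaks with SETα addback, 1 and 1 with SETβ addback and 0 or 1 in each overexpression library. The flank of equal length below it had 55 and 50 peaks in SETα addback and 38 and 42 in SETβ addback, and the flank above had 5 and 5, then 2 and 3. With overexpression the lower flank had 0 and 11 peaks for SETα and 4 and 13 for SETβ, and the upper flank none. The lower flank includes Rn4.5s, the gene of the rodent 4.5S RNA, another product of RNA polymerase III. It also includes Rny1 and Rny3, whose RNAs are products of this polymerase too and which held no peak in any library. Whether reads of the many like cysteine genes were kept by the authors' alignment is not given in the sources used here, and its part in these low counts was not tested.

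Without the cysteine genes, which were set aside after their values were seen, 187 of 280 tRNA genes (66.8%) held a peak in at least 1 addback library, against 36% of all gene regions and 60.5% of the longer protein-coding ones. By library the tRNA shares were then 41.8% and 51.1% in SETα addback and 9.29% and 22.1% in SETβ addback. Among families of at least 5 genes, the share of genes with a peak in at least 1 addback library was highest for leucine, 18 of 19 (94.7%), then proline with 11 of 12 (91.7%) and glycine with 19 of 22 (86.4%), of which 3 leucine and 6 glycine genes are in the array. Within single SETα addback libraries the order differed: 15 of 22 glycine and 11 of 19 leucine genes held a peak in each. Lysine had the lowest share after cysteine, 8 of 22 (36.4%). All 6 genes of the glycine anticodon TCC held a peak in both SETα addback libraries. Methionine genes held one at 8 of 15 in each SETα addback library and at 0 and 1 with SETβ addback. All gene regions had 27.3% and 23.1% in SETα addback and 5.64% and 15.4% in SETβ addback. The SETβ counts of methionine genes were thus near the background.

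**Figure D4:**
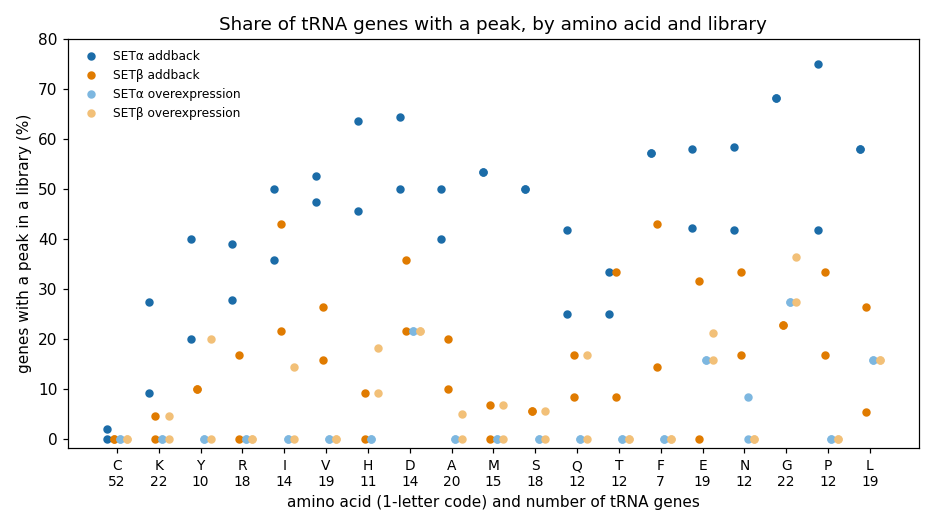
Percentage of the genes of each amino acid family of at least 5 genes that hold a peak, with 1 point per library coloured by group, families ordered by the share with a peak in any addback library. Cysteine (C, 52 genes) lies at or near 0, lysine (K) comes next, and overexpression points above 20% occur at aspartate (D), glutamate (E) and glycine (G), families with genes in the array.

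Other products of RNA polymerase III were counted from a fixed list, of whose 18 names 13 were found on the analysed chromosomes. With SETα addback 6 and 7 of 13 held a peak, for SETβ 1 and 3, and in the overexpression libraries 0. Of all gene regions 27.3% and 23.1% held one in the SETα libraries and 5.64% and 15.4% in the SETβ libraries of SET KO. The SETβ counts were thus near the background. With overexpression all gene regions had 1.8% and 2.99% for SETα and 0.945% and 2.68% for SETβ, so that 0 of 13 was near the background too. Rn4.5s held one in all 4 addback libraries, with a −log10 p of 15.0 and 20.2 with SETα and 10.3 and 10.7 with SETβ. Rn7sk, an RNA that holds back the elongation factor P-TEFb, had 4.12 and 4.93 with SETα addback and none with SETβ. Rmrp, the RNA of the mitochondrial RNA processing ribonuclease, had 5.44 and 4.93 with SETα addback and 2.83 in SETβ addback replicate 2. Rn7s1 and Rn7s2, RNAs of the signal recognition particle, and Rpph1, the RNA of ribonuclease P, held peaks in both SETα addback libraries. Rny1, Rny3, Rnu6, Vaultrc5, Rprl1 and Rprl2 held none in any library.

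Genes for the polymerase III machinery were counted in the same way, over whole genes. Of 28, 21 and 17 held a peak with SETα addback, 7 and 15 with SETβ addback and 0, 0, 0 and 2 with overexpression. The shares were 75.0% and 60.7% in SETα addback and 25.0% and 53.6% in SETβ addback, where all protein-coding genes had 47.5%, 41.7%, 10.8% and 28.3%. With overexpression all protein-coding genes had 2.51%, 4.61%, 1.55% and 4.57%, so that these low counts were near the background. Of the 28, 7 (25.0%) held a peak in all 4 addback libraries, where 7.14% of protein-coding genes did, among them Polr3b, the second-largest subunit (−log10 p 39.4, 48.1, 70.0 and 49.9 in the order SETα 1, SETα 2, SETβ 1 and SETβ 2), Gtf3c3, a subunit of TFIIIC (23.0, 20.9, 52.9 and 33.98), and Tbp (15.8, 34.8, 51.1 and 32.1). Maf1, the repressor of the polymerase, had 17.3, 21.5, 20.6 and 16.1. At Polr3e, another subunit, the peak of SETα addback replicate 2 (−log10 p 7.33) is the same as that of the single leucine gene n-TLaag4 beside it.

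Of 30 genes for processing and export of tRNA, 19 and 19 held a peak with SETα addback, 5 and 10 with SETβ addback and 0, 1, 0 and 2 with overexpression. As shares this was 63.3% for each replicate of SETα addback, 16.7% for SETβ replicate 1 and 33.3% for its replicate 2, beside the protein-coding shares given above. Adat2, a subunit of the tRNA adenosine deaminase, had the strongest (−log10 p 58.4, 59.4, 91.1 and 77.8). Tsen15, a subunit of the splicing endonuclease, had 19.1, 20.8, 42.1 and 27.2, and Trdmt1, a cytosine methyltransferase of tRNA, 18.3, 17.0, 21.6 and 19.9. Nsun2, another cytosine methyltransferase and the remaining gene of the list with a peak in all 4 addback libraries, had 12.6, 13.9, 7.04 and 5.96. A −log10 p depends on depth, so that values of different libraries are side by side here and were not compared by a test.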

How the data were processed

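ChIP-seq peak lists of 8 libraries (4 groups of 2) and 4 lists that combine replicates were used. The submitters' processing notes name Bowtie2, MACS2 and deepTools and the builds GRCm38 and mm10, without version or role. Parameters, control libraries and treatment of reads that match several places are not given in the sources used here. Per the layout of the deposited files, each library list gives the authors' score, a fold enrichment (linear ratio over local background), and the −log10 p and −log10 q of each peak, called per library. The IDR lists hold a score scaled from the IDR by the authors and the smaller deposited −log10 p of the replicates. These values were used only to describe, rank or filter peaks within a list.

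Gene positions came from a RefSeq table of GRCm38.p6, and positions count from 1. A region held a peak if at least 1 bp overlapped. Libraries were grouped by the labels. Backgrounds and isoforms were compared with exact permutation tests over 36 arrangements, moving background labels within isoform or isoform labels within background. Alternatives covered region width, overlap rule, peak thresholds, list length, chromosomes, merged regions, single libraries and the shift. The counting code was tested on simulated data. Read depth is unknown. The members, gene lists and tests were chosen with earlier results of these data known. Named genes were those with an IDR peak, the strongest by mean rank percentile among genes with a peak in all 4 addback libraries, the 5 strongest in overexpression, the 5 largest clusters, the extreme families, genes with sequence, and the first single genes without a peak. n-TRtcg5, n-TTagt9, n-TAagc16, n-TLaag4, n-TCgca52, the cluster of 9 genes and the genes named from the lists were chosen after their values were seen. Python 3.11.15, pandas 2.3.3, numpy 2.4.6 and scipy 1.17.1 were used.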

Additional observations from a re-analysis of the deposited data

Results flagged for a closer look

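The order of the isoforms at tRNA genes was opposite in the backgrounds. Both SETα addback libraries (35.2% and 43.4% of regions with a peak) lay above both SETβ addback libraries (7.83% and 18.7%), and both SETα overexpression libraries (4.52% and 4.82%) lay below both SETβ overexpression libraries (5.12% and 8.73%). The difference between the isoform differences was 28.3 percentage points. This comparison was chosen after seeing the data, because every library of one isoform lay above every library of the other in each background, in opposite directions. A permutation p would restate that choice, so none is given and the difference counts as not tested. After subtraction of the moved share the overexpression libraries overlapped, with 3.46 and 4.22 points for SETα and 3.77 and 6.63 for SETβ. SETα lists were longer than SETβ lists in both backgrounds. With the strongest 1343 peaks of each library the value was 6.02 points, and when the chromosome 1 array was also left out it was 2.68 points. Over all gene regions SETα addback (27.3% and 23.1%) also lay above SETβ addback (5.64% and 15.4%). That order was thus not particular to tRNA genes. In overexpression the all-gene shares overlapped, at 1.8% and 2.99% for SETα and 0.945% and 2.68% for SETβ.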

How the results depend on the processing

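The permutation tests cannot reach 0.05 here, so only sizes and signs bear on stability. Averaged over libraries, the differences below stayed above 0 under the alternatives run. They shrank when only stronger peaks were kept, and some other settings raised them. SET KO minus SET wild type, 20.5 points, was 3.46 with peaks of −log10 q of at least 5 and 1.96 with the strongest peaks. It was 24.3 with 1000 bp on each side and 24.2 without chromosome 6. SETα minus SETβ, 11.9 points, was 2.56 with −log10 q of at least 5 and 0.75 with the strongest peaks. With the strongest peaks and no array it was 0.079. Single libraries did change sign. Without the array the excess over moved regions turned from 3.46, 4.22 and 3.77 points to -0.79, -0.32 and -0.32 in SETα overexpression 1 and 2 and SETβ overexpression 1. In SETβ addback replicate 2 clustered minus single genes, -1.78 points, was 2.08 with summits inside the region, and near minus far from coding genes, 17.3 points, was -0.52 with −log10 q of at least 1.3. The excess over moved regions in addback libraries, 22.0 points, was 3.61 with peaks of −log10 q of at least 5 and 5.72 with the strongest peaks. The difference between tRNA genes near and far from coding genes, 17.0 points, was 13.8 with gene bodies only, 12.0 with summits inside the region, 10.2 with −log10 q of at least 1.3, 7.27 with at least 5, 9.06 with the strongest peaks, 12.4 without chromosome 6, 19.4 without chromosome 13, 13.6 with 1 region per locus, 14.7 with near as within 5 kb and 14.1 without the array. The 13 SETα addback IDR regions were 7 with summits inside and 4 with overlapping regions merged or without the array. The 2 of SETα overexpression were 1 with gene bodies or with overlapping regions merged. They were 0 at an IDR of at most 0.01 or without the array. The 3 of SETβ overexpression were 1 with overlapping regions merged and 0 without the array. Many of these settings keep fewer peaks or regions, while near as within 5 kb only redraws the groups. The cause of these changes was not tested. Leaving out 1 library at a time gave 17.8 to 23.2 points for SET KO minus SET wild type, 9.19 to 14.6 for SETα minus SETβ, and 22.9 to 33.7 for the difference between the isoform differences. The settings without the array were chosen after seeing the data. Same-numbered deviations over 41574 gene regions correlated between -0.0244 and 0.0907. The labels do not say whether equal replicate numbers mark a shared batch, and weak correlations of peak calls cannot exclude one. With a replicate block the background difference of 20.5 points had an exact permutation p of 0.125, the smallest possible there, and the isoform difference of 11.9 points one of 0.5. Without read totals, a missing peak cannot be told from one below detection.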

Other observations

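On the X chromosome, which the count above leaves out, 17 further tRNA genes are annotated. With SETα addback, 1 of them, n-TVtac3, held a peak in replicate 2, and none held a peak in the other 7 libraries.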
